A study of Oryza sativa with 51 samples.

Results

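In moderate drought, 700 of the 1395 regions in the authors' deposited table of H2Bub1 differences lay 1 to 3 kb from an annotated transcript start and held less H2Bub1 than under normal water. They were chosen by 2 criteria, an annotation of 1 to 2 kb or 2 to 3 kb from the start and a drought log2 concentration of H2Bub1 below the normal one. By the sign of the distance, 664 lay inside, that is downstream of the start, and 36 lay upstream of it. The inside regions were assigned to 656 genes and the upstream ones to 36, which made 690 genes in all.

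The plants were rice (Oryza sativa) seedlings of the line Zhonghua11, grown in soil to the 4-leaf stage. Normally watered plants were compared with plants in slowly developing drought, called moderate when about 20% of relative soil water content was left and severe when about 10% was left. Each of these conditions had 3 H2Bub1 chromatin immunoprecipitation (ChIP) samples, 3 input samples and 3 RNA samples, and no transgene or mutation was present in them. A second set compared leaves of wild type plants with those of an osbzip46 mutant in the Zhonghua11 background, under normal water and drought, with 3 H2Bub1 and 3 input samples per group. Which tissue was taken in the first set is not named by the labels. They also do not say whether replicates were separate plants, so the p-values here cover only the spread of these samples, which could be technical.

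H2Bub1 is histone H2B that carries a single ubiquitin. In plants the HUB1 and HUB2 ubiquitin ligases place it, ubiquitin proteases remove it, and it is known as a mark of the bodies of genes that are being transcribed. OsbZIP46 belongs to the bZIP transcription factors that act in abscisic acid (ABA) signalling, the hormone pathway by which rice answers water shortage.

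The regions were selected on these H2Bub1 values, which are therefore given as a description, without a test. They come from the authors' deposited table, which holds 1 log2 concentration per condition with replicates combined, so no spread between replicates can be given. Each region was 500 bases wide. The median log2 concentration was 7.10 under normal water and 5.83 in moderate drought, and the median difference was −1.30, which leaves 40.6% of the normal level. The differences ran from −6.85 to −1, with quartiles of −1.64 and −1.13, so most losses were close to the smallest one listed. A loss of at least 1.5 was listed for 233 regions, of at least 2 for 117 and of at least 3 for 37.

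Upstream regions started lower and differed more in the median. Their median concentrations were 6.64 under normal water and 5.20 in drought, with a median difference of −1.47, against 7.11, 5.86 and −1.29 for the inside regions. The table lists only regions that differ by at least 1 in either direction, so a region just short of that loss is not listed. The smallest losses listed were −1, a value that several inside regions share. Examples are the regions inside LOC_Os02g50780 (8.12 to 7.12) and upstream of LOC_Os01g51632 (6.62 to 5.62). The nearest value on the other side was a gain of 1.01, the smallest gain listed at 1 to 3 kb.

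**Figure D1:**
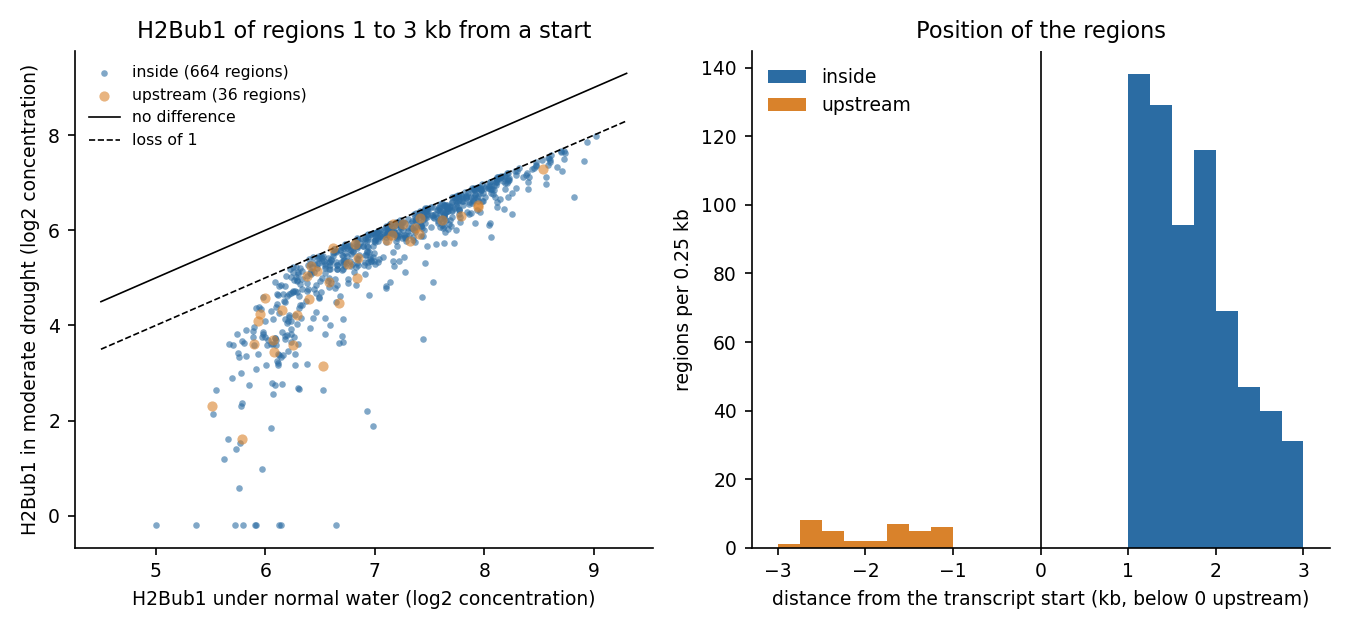
Left, H2Bub1 of each of the 700 regions as log2 concentration under normal water (x axis) and in moderate drought (y axis), for 664 inside (blue) and 36 upstream (orange) regions, with lines at no difference and at a loss of 1. Right, number of regions per 0.25 kb of distance from the transcript start. Regions with low normal levels reach the largest losses, 9 inside regions sit at a drought value of −0.20, and counts inside the gene fall with distance.

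The largest losses ended at 1 shared value. In 9 inside regions the drought log2 concentration was −0.20, the minimum of that column, and none of the upstream regions reached it. The region inside LOC_Os08g39830 (chromosome 8, 25212733 to 25213232, 1218 bases from the start) went from 6.65 to −0.20. The region inside LOC_Os07g27810 (chromosome 7, 16228624 to 16229123) went from 6.14 to −0.20, and that inside LOC_Os05g37200 (chromosome 5, 21751875 to 21752374) from 6.13 to −0.20. LOC_Os02g52280 held 2 regions at that minimum, 1289 and 2679 bases from its start, from 5.80 and 5.92. A difference that ends at a column minimum depends on how the authors set that minimum, a step not given in the sources used here. Among the inside regions, the difference and the normal concentration had a Spearman correlation of 0.511 across 664 regions, as a description of values that share the normal samples.

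The largest upstream losses were spread over 4 genes. The region 1208 bases upstream of LOC_Os09g34890 (chromosome 9, 20333536 to 20334035) went from 5.79 to 1.61. The region upstream of LOC_Os02g39150 went from 6.53 to 3.15, that of LOC_Os01g50080 from 5.51 to 2.31 and that of LOC_Os08g42600 from 6.25 to 3.59. The files pair no names or descriptions with these identifiers, so genes are given by identifier throughout, and coordinates follow the authors' files, with a build not given in the sources used here.

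Inside regions lay mostly within the body of the gene they were assigned to. Of the 664, 649 overlapped the assigned model, 634 lay in it entirely and 15 started beyond its end. Their median position was at 35.1% of the length of the model, and the median model was 4608 bases long. More of them lay at 1 to 2 kb (477) than at 2 to 3 kb (187). Lower H2Bub1 was the usual direction in the whole table (83.9% of 1395 regions). At 1 to 3 kb it held for 90.8% of the 731 inside and 83.7% of the 43 upstream regions. Among inside regions of the other classes it was 66.8% within 1 kb of the start (346 regions), 92.7% in those annotated as exon or intron (123) and 86.1% in the rest (36). All 12 chromosomes held such regions, from 27 on chromosome 11 to 110 on chromosome 1.

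A single region per gene was the rule. Of the 690 genes, 680 had 1 region and 10 had 2. Only 10 of them also had a lower region within 1 kb, and 10 had a lower region annotated as exon or intron. LOC_Os06g11990 and LOC_Os01g11054 had regions in both positions. In LOC_Os06g11990 the upstream region went from 7.11 to 5.80 and the inside one from 6.68 to 5.58. In LOC_Os01g11054 the region called upstream (6.07 to 3.69) was measured from a transcript of 4566 bases and lies inside a longer model of the same gene, of 10041 bases, that the RNA tables use.

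RNA was the measurement that the choice of regions did not use. The 9 Zhonghua11 libraries listed TPM (transcripts per 1000000, a level scaled to gene length and depth) for 55986 genes each. Severe replicate 3 lay apart from the rest: its highest correlation with another library was 0.955, against a lowest value of 0.989 between any 2 normal or any 2 moderate libraries. In these bulk samples, fewer cells of a type and less RNA per cell cannot be told apart. Rose and fell below refer to limma's test on log2(TPM + 1), with Benjamini-Hochberg adjusted p under 0.05 over 20642 tested genes.

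Genes with an inside region had lower RNA in moderate drought more often than genes at large. Of the 656 genes, 648 passed the filter on low values, and 296 of them fell, 82 rose and 270 were not called. That is 45.7% lower and 12.7% higher, against a background of 18.9% lower and 39.4% higher among all tested genes. Their median log2 difference was −0.30, where that of all tested genes was 0.20, and 99 of them fell by at least 1 while 8 rose by at least 1. The filter let 1 of these genes pass through its normal libraries alone. No test of the whole list was made.

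The balance between rises and falls depended on the scaling, but in both scalings more of these genes fell than rose. With median-of-ratios scaling, which brings the median of all genes from 0.20 to about 0 (−0.0053), 405 of the 648 genes fell and 36 rose, with 28.2% of all tested genes lower and 27.8% higher. The median of the inside genes then was −0.52. Relative to the median of all genes it was −0.50 as fitted and −0.51 after that scaling. Without the filter on low values it was −0.30, since the median of all genes was then 0.0040 and that of 655 inside genes −0.29.

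The single libraries were then compared without a fit. In 373 of the 648 genes (57.6%) all 3 moderate libraries lay below all 3 normal ones, against a background of 24.7%. In 114 (17.6%) they all lay above, against a background of 48.3%. These genes were also more strongly expressed than most, with a median normal level of 18.7 TPM against 11.7 TPM over all tested genes. Among genes with at least 10 TPM on average over the 9 libraries, 230 of 453 fell (50.8%, background 17.6%) and 52 rose (11.5%, background 43%). Among genes with a model of at least 2000 bases, 291 of 629 fell (46.3%, background 17.5%) and 79 rose (12.6%, background 40.8%). Both of these limits were chosen after seeing the data.

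**Figure D2:**
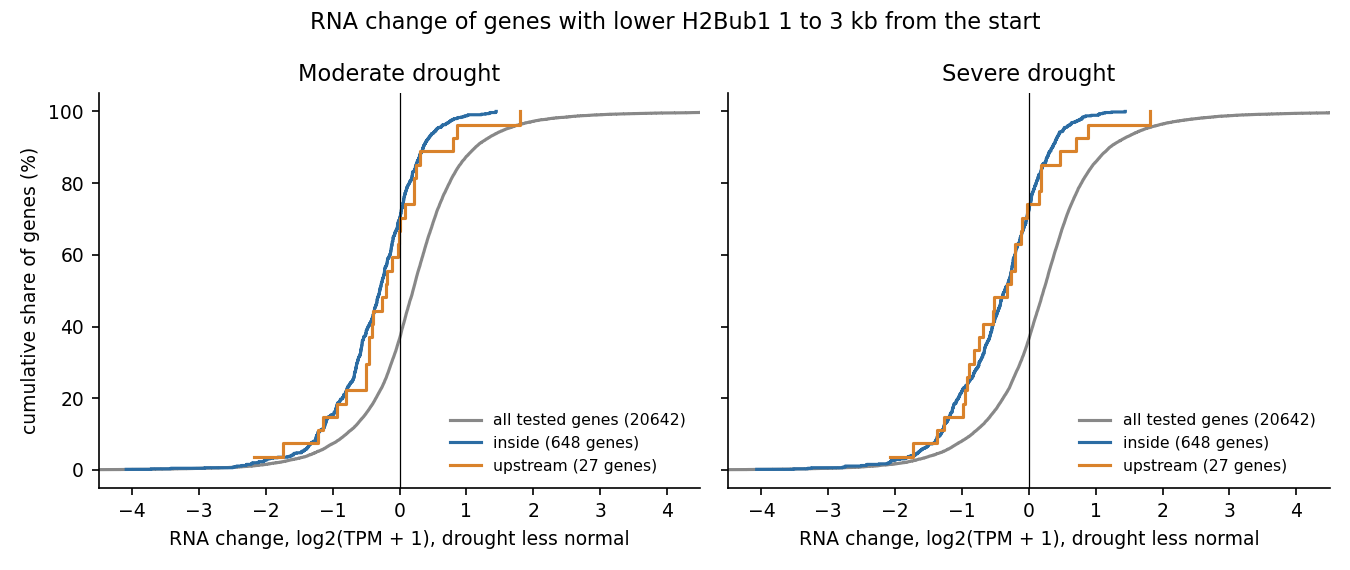
Cumulative share of genes (y axis, %) by RNA difference from normal water on the log2(TPM + 1) scale (x axis), in moderate (left) and severe (right) drought, for genes with an inside region (648, blue), with an upstream region (27, orange) and for all tested genes (20642, grey). Both coloured curves lie to the left of the grey one over most of their range, with medians of −0.30 and −0.21 against 0.20 in moderate drought and −0.36 and −0.33 against 0.22 in severe drought.

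Counts at both distances were close. With the region at 1 to 2 kb, 222 of 474 genes fell (46.8%) and 60 rose. With the region at 2 to 3 kb, 78 of 182 fell (42.9%) and 23 rose. The background was 18.9% lower and 39.4% higher. Whether both distances differ was not tested.

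Falls in RNA were most frequent among the genes with the largest losses of H2Bub1. Among the 219 genes with the largest losses (a median of −1.92), 120 genes fell (54.8%) and 19 rose, with a median RNA difference of −0.55. Among the 217 in the middle (−1.27), 94 fell (43.3%) and 27 rose. Among the 212 with the smallest losses (−1.07), 82 fell (38.7%) and 36 rose, with a median of −0.18. Of all tested genes, 18.9% were lower and 39.4% higher. With median-of-ratios scaling the shares lower were 68.9%, 60.4% and 58.0%, in the same order, against 28.2% of all tested genes. The middle and smallest losses then differed little. Differences between these sets of genes were not tested. Across the 648 genes the Spearman correlation between H2Bub1 difference and RNA difference was 0.214, so most of the variation in RNA was not ordered by the loss. The normal concentration and the normal TPM had a Spearman correlation of 0.393. Genes are not independent replicates, and these correlations are descriptions.

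The largest falls and rises in RNA named below were chosen among genes whose normal and moderate libraries did not overlap. Among genes with an inside region, the largest fall was at LOC_Os12g40920. Its normal libraries held 247, 239 and 223 TPM, its moderate ones 13.8, 10.1 and 15.6 TPM and its severe ones 15.4, 13.1 and 11.1 TPM. No drought library came near a normal one. The log2 difference was −4.09 ± 0.16 (SE) in moderate drought, with an adjusted p of 8.07e-07 in limma. H2Bub1 in its region (chromosome 12, 25334630 to 25335129, 1856 bases from the start) went from 6.93 to 2.20.

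LOC_Os08g39830, the gene with the largest H2Bub1 loss, had the next largest fall. It held 30.4, 27.5 and 28.2 TPM under normal water, 1.71, 0.899 and 1.24 TPM in moderate drought and 2.35, 2.82 and 1.38 TPM in severe drought. The groups did not overlap, and the moderate difference was −3.72 ± 0.19 (SE, adjusted p = 2.33e-06 in limma). LOC_Os07g37230 fell from 168 TPM ± 5.90 (SD, n = 3) to 15.9 TPM ± 6.92, and LOC_Os02g47600 from 585 TPM ± 18.3 to 77.5 TPM ± 12.5. The H2Bub1 loss in LOC_Os02g47600 was −1.58 (8.56 to 6.98).

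The largest rises were smaller than the largest falls. LOC_Os07g27810, whose region was at the minimum of −0.20 in drought, held 9.55, 10.3 and 9.59 TPM under normal water and 28.1, 31.1 and 25.7 TPM in moderate drought. Its severe libraries, at 18.8, 23.4 and 12.9 TPM, lay between. All drought libraries were above all normal ones, and the moderate difference was 1.43 ± 0.18 (SE, adjusted p = 0.000206 in limma). LOC_Os02g07060 held 10.2 to 13.3 TPM in the normal libraries, 33.7, 36.6 and 28.7 TPM in moderate drought and 26.8, 30.9 and 18.2 TPM in severe drought, the largest rise among these genes at 1.45 ± 0.19. Its H2Bub1 went from 5.92 to 3.09. LOC_Os12g42876 rose from 75.6 TPM ± 6.46 (SD, n = 3) to 195 TPM ± 16.1, and LOC_Os07g38490 from 4.41 TPM ± 0.428 to 12.7 TPM ± 1.86.

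Of the 8 genes with a region at the minimum of −0.20, 7 were tested, of which 4 fell, 2 rose and 1 was not called in moderate drought. The background was 18.9% lower and 39.4% higher, and 7 genes are too few to be read against it. LOC_Os02g52280, with 2 regions at the minimum, went from 7.94 TPM ± 1.84 (SD, n = 3) to 1.31 TPM ± 0.254, and LOC_Os05g37200 from 19.0 TPM ± 1.63 to 9.55 TPM ± 0.689. At the other end, several inside regions shared the smallest listed loss of −1, and LOC_Os02g50780 is 1 of their genes. It went from 30.3 TPM ± 0.648 to 26.2 TPM ± 0.846. It missed the threshold in moderate drought (−0.20 ± 0.08, adjusted p = 0.0528 in limma), although its 3 moderate libraries all lay below the normal ones. Its adjusted p was 0.0244 when the severe libraries were left out of the fit. With quantile normalization or median-of-ratios scaling the difference was −0.42 or −0.43 and was called (adjusted p = 0.00116 and 0.00198).

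The 2 genes with regions in both positions differed in RNA. LOC_Os01g11054 held 152, 154 and 169 TPM under normal water, 85.5, 76.0 and 86.4 TPM in moderate drought and 72.0, 77.9 and 48.7 TPM in severe drought. All its drought libraries were below the normal ones, with a moderate difference of −0.93 ± 0.16 (SE, adjusted p = 0.00115 in limma). LOC_Os06g11990 held 13.1, 11.4 and 13.7 TPM, then 15.7, 18.9 and 13.5 TPM, then 10.0 to 12.9 TPM. Its groups overlapped, and the moderate difference of 0.30 ± 0.14 was not called (adjusted p = 0.0919), though it was without severe replicate 3 (adjusted p = 0.0435).

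**Figure D3:**
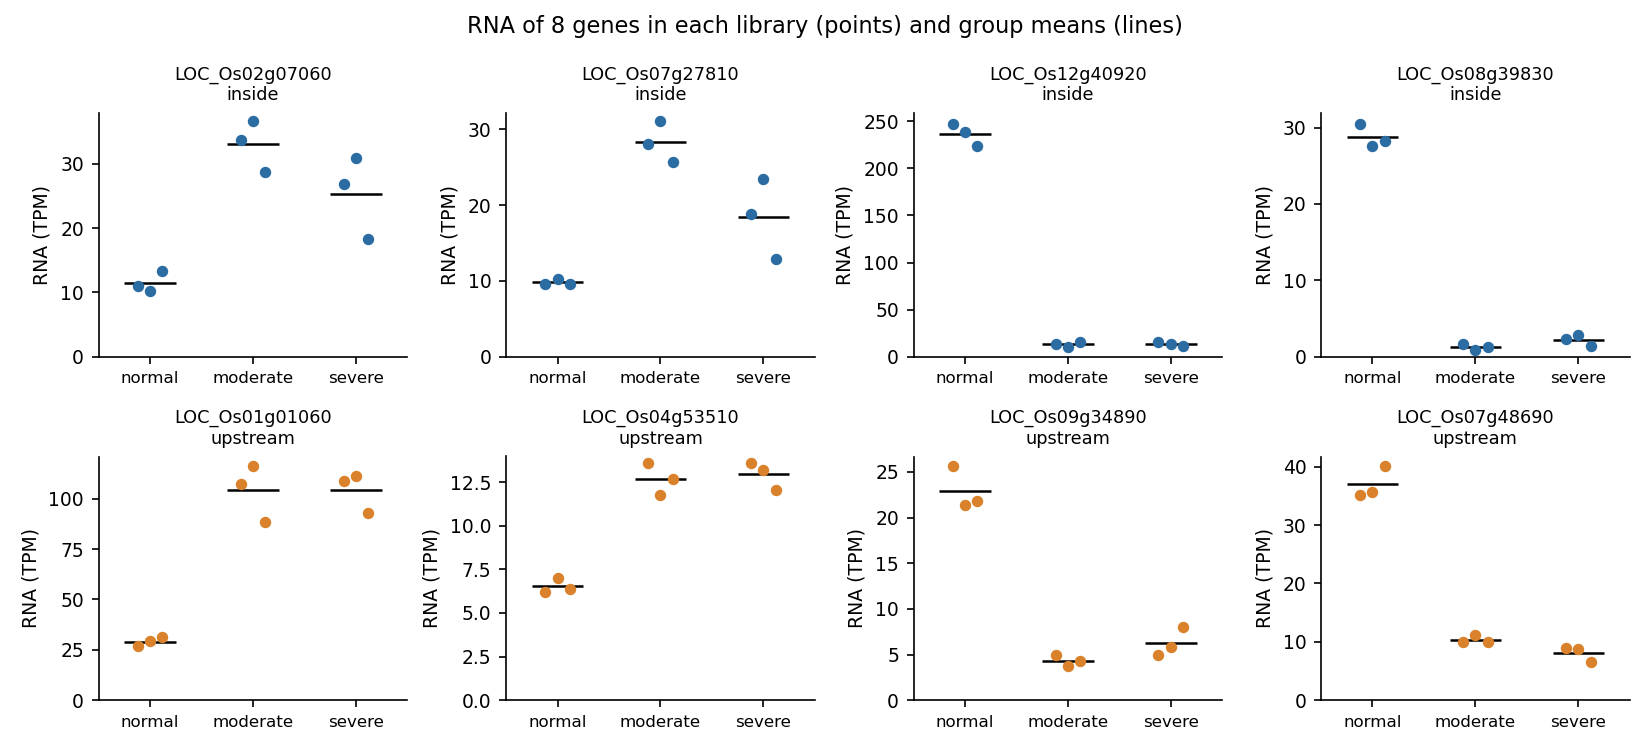
RNA level in TPM (y axis, from 0) in each of the 9 libraries under normal water, moderate and severe drought, with a line at the mean of each group of 3. The upper row shows 2 rises and 2 falls among genes with an inside region (blue), the lower row the same for genes with an upstream region (orange). The 8 genes were chosen among those whose moderate libraries do not overlap the normal ones, as in LOC_Os12g40920 with 10.1 to 15.6 TPM against 223 to 247 TPM.

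Upstream regions were few, and many of their genes had little RNA. Of 36 genes, 27 passed the filter, and the median normal level of all 36 was 6.17 TPM. In moderate drought 12 fell, 3 rose and 12 were not called, or 44.4% lower and 11.1% higher against the background of 18.9% and 39.4%. Their median log2 difference was −0.21, or −0.41 relative to that of all genes. Without the filter on low values, which adds 8 genes, it was −0.12 both as fitted and relative to all genes. All 3 moderate libraries lay below the normal ones in 13 of the 27. With severe replicate 3 left out of the fit, 5 of 26 genes (19.2%) rose and 13 fell.

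Many of the upstream regions lay inside a neighbouring gene. Of the 36, 15 overlapped the model of another gene, 13 of them over their full width, and 1 lay in the longer model of its own gene noted above. The remaining 20 overlapped no model. Of the 664 inside regions, 17 overlapped a model other than their own. In the 15 cases, the middle of the upstream region lay a median of 3458 bases into the other gene. These 15 other genes had a median normal level of 13.8 TPM, against 1.95 TPM for the 15 genes to which the regions had been assigned. Of the other genes, 6 fell and 1 rose among 15 tested. Of the assigned ones, 4 fell and 3 rose among 10 tested, against the background of 18.9% lower and 39.4% higher. LOC_Os07g48690 and LOC_Os07g48700, which both fell, are in both sets, so the sets are not separate. All 3 rises among genes with an upstream region belonged to regions that lie inside another gene.

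The region 1558 bases upstream of LOC_Os01g01060 (chromosome 1, 25079 to 25578) lies inside LOC_Os01g01050, and its H2Bub1 went from 7.16 to 5.90. LOC_Os01g01060 held 26.8, 29.1 and 31.1 TPM under normal water, 108, 116 and 88.2 TPM in moderate drought and 109, 111 and 92.7 TPM in severe drought. It rose by 1.80 ± 0.12 (SE, adjusted p = 7.47e-06 in limma), with no overlap between groups. The gene that holds the region, LOC_Os01g01050, was at 21.4 TPM and 22.3 TPM on average, a difference of 0.045 ± 0.13 (adjusted p = 0.787).

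LOC_Os04g53510 and the gene that holds its upstream region moved in opposite directions. LOC_Os04g53510 held 6.23, 7.03 and 6.37 TPM under normal water, 13.6, 11.8 and 12.7 TPM in moderate drought and 13.6, 13.2 and 12.1 TPM in severe drought, a moderate rise of 0.86 ± 0.09 (SE, adjusted p = 6.83e-05 in limma). LOC_Os04g53520, a gene of 14083 bases that spans the region, went from 10.5 TPM on average to 7.87 TPM, a difference of −0.38 ± 0.09 (adjusted p = 0.00504). It also holds 2 inside regions of its own, with losses of −2.58 and −1.12. LOC_Os03g56390 rose by 0.79 ± 0.09, as did LOC_Os03g56380, which holds its region, by 0.58 ± 0.11.

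LOC_Os07g48690 and LOC_Os07g48700 each have an upstream region that lies inside the other gene. The genes run on opposite strands of chromosome 7. The region at 29159813 to 29160312 went from 6.40 to 4.56, and that at 29164184 to 29164683 went from 6.85 to 5.42. LOC_Os07g48690 held 35.1, 35.7 and 40.1 TPM under normal water, 9.94, 11.2 and 10.0 TPM in moderate drought and 8.87, 8.78 and 6.58 TPM in severe drought. LOC_Os07g48700 held 13.6, 13.0 and 13.8 TPM, then 5.48, 5.40 and 4.81 TPM, then 4.74, 4.75 and 4.22 TPM. Both fell without overlap between groups, with differences of −1.74 ± 0.12 and −1.22 ± 0.09 (SE). Their models overlap and strand-specific counting is not stated, so reads where the models overlap cannot be assigned to one of them.

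**Figure D4:**
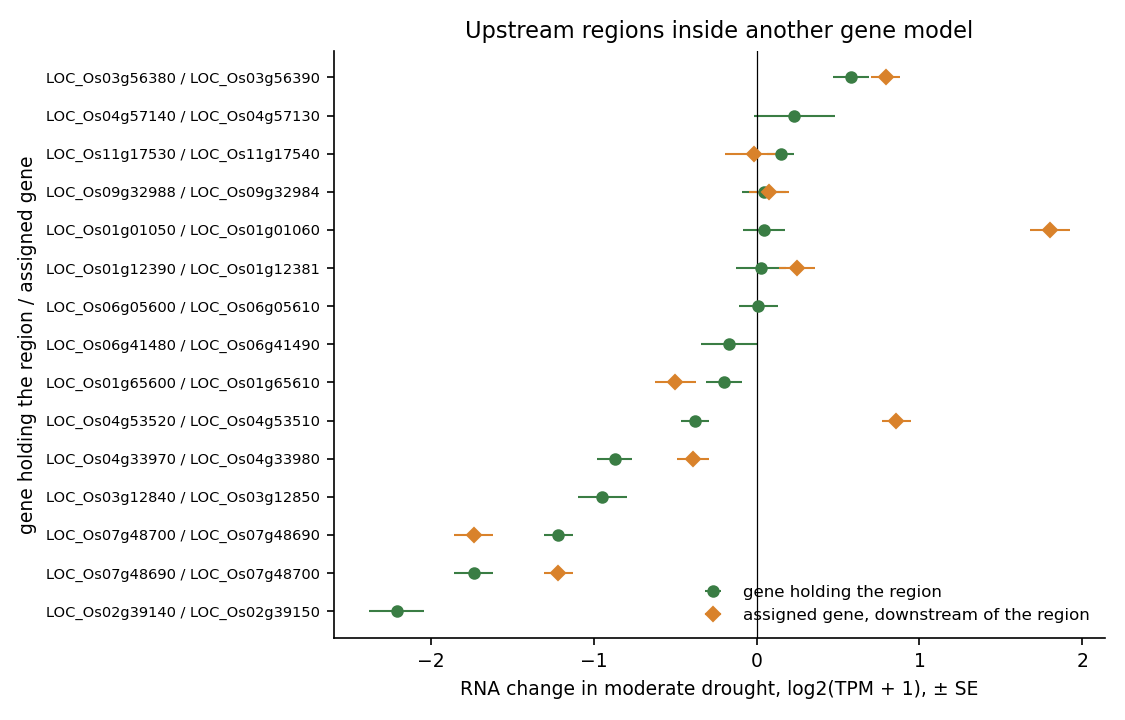
RNA difference in moderate drought (x axis, log2(TPM + 1), with SE) of the 15 genes that hold an upstream region in their model (green circles) and of the genes to which these regions were assigned (orange diamonds, where the gene passed the filter). Each line is 1 region, named by the holding and then the assigned gene. The pairs that lie farthest apart are LOC_Os01g01050 (0.045) with LOC_Os01g01060 (1.80) and LOC_Os04g53520 (−0.38) with LOC_Os04g53510 (0.86).

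In 5 of the 15 pairs the assigned gene had too little RNA to be tested, and the gene that holds the region was tested. Of these 5 holding genes 2 fell and 3 were not called (background 18.9% lower and 39.4% higher), too few to be read against the background. The region upstream of LOC_Os02g39150, with a loss of −3.38, was assigned to a gene at 0.690 TPM under normal water. It lies inside LOC_Os02g39140, which fell from 20.0 TPM to 3.51 TPM on average (−2.21 ± 0.17 SE, adjusted p = 1.27e-05 in limma). LOC_Os03g12850, at 0.0241 TPM, has its region inside LOC_Os03g12840, which fell from 52.3 TPM to 27.1 TPM (−0.95 ± 0.15, adjusted p = 0.000728). The 3 not called were LOC_Os06g41480 (−0.17 ± 0.17, adjusted p = 0.438), LOC_Os06g05600 (0.011 ± 0.12, adjusted p = 0.942) and LOC_Os04g57140 (0.23 ± 0.25, adjusted p = 0.453).

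For the 20 upstream regions in no gene model, 16 genes were tested, of which 7 fell and 0 rose in limma's test (background 18.9% lower and 39.4% higher), with a median of −0.24. At an unadjusted p under 0.05 the counts were also 7 and 0, and with median-of-ratios or quantile scaling 9 fell and 0 rose (median-of-ratios background 28.2% lower and 27.8% higher). Without severe replicate 3 in the fit 2 of the 16 rose and 8 fell, and 1 rose without normal replicate 3 or without moderate replicate 3. LOC_Os09g34890, with the largest upstream loss, held 25.6, 21.4 and 21.8 TPM under normal water, 4.96, 3.71 and 4.24 TPM in moderate drought and 4.98, 5.86 and 8.05 TPM in severe drought. It fell by 2.18 ± 0.16 (SE, adjusted p = 1.12e-05), and no drought library reached a normal one. LOC_Os01g50080, with a loss of −3.20, was not called at 0.22 ± 0.23 (adjusted p = 0.45 in limma), from 18.9 TPM ± 1.58 (SD, n = 3) to 22.1 TPM ± 1.62.

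Among the 17 inside regions that overlap another model, the one inside LOC_Os02g07160 starts within LOC_Os02g07150, over which 482 of its 500 bases lie. LOC_Os02g07150 fell from 26.6 TPM to 12.2 TPM on average (−1.07 ± 0.07 SE, adjusted p = 5.58e-06 in limma). LOC_Os02g07160 held 49.9, 51.0 and 61.0 TPM under normal water and 70.7, 82.3 and 80.9 TPM in moderate drought, a difference of 0.53 ± 0.32 that was not called (adjusted p = 0.195). Its severe libraries were at 86.6, 78.1 and 211 TPM, with the last in severe replicate 3. Without that library in the fit, its moderate difference passed the threshold (adjusted p = 0.000732). The reverse was seen for LOC_Os04g45600, which fell from 227 TPM ± 13.9 (SD, n = 3) to 135 TPM ± 6.48 (−0.74 ± 0.14 SE, adjusted p = 0.00174 in limma). Its region, with a loss of −1.89, starts 1812 bases from the start, beyond the end of its own model of 1387 bases. That region lies over its full width in LOC_Os04g45610, which was at 10.7 TPM and 11.5 TPM on average (0.086 ± 0.08, adjusted p = 0.373).

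Severe drought shares its normal samples with moderate drought, so its values are set beside the others and not counted as a second observation. In severe drought 340 of the 648 genes with an inside region fell and 74 rose (52.5% and 11.4%, background 20.6% and 42.1%), with a median of −0.36 against 0.22 for all genes. All 3 severe libraries lay below all normal ones in 369 genes (56.9%, background 23.3%) and above them in 89 (13.7%, background 45.3%). Among genes of at least 10 TPM on average, 266 of 453 fell (58.7%, background 19.5%) and 50 rose (11%, background 46.5%). With a model of at least 2000 bases, 333 of 629 fell (52.9%, background 19.3%) and 70 rose (11.1%, background 43.1%). Without severe replicate 3, 357 fell and 91 rose. With median-of-ratios scaling 426 fell and 32 rose, with 29.6% of all tested genes lower and 30.1% higher. Of the 27 genes with an upstream region, 13 fell and 4 rose (48.1% and 14.8%). Without severe replicate 3, 15 of 26 fell and 4 rose.

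For H2Bub1 in severe drought, the authors' deposited table gives values at 158 of the 700 regions (22.6%), 144 inside and 14 upstream. The other 542 are not listed there, which says only that they did not pass that table's limits. The share was near that of other lower regions, 17.8% within 1 kb and 20% in exon or intron. For higher regions at 1 to 3 kb it was 5.41%. The moderate and severe tables share their normal values, since all 30 regions with identical coordinates in both have the same normal concentration. At the 158 overlaps the median difference was −1.38 in moderate and −1.33 in severe drought. Both tables list only differences of at least 1, so this cutoff bounds both medians, and their likeness is not read as a result. In LOC_Os07g27810 the difference was −6.34 in moderate drought and −1.92 in severe drought, where the concentration was 4.22. In LOC_Os02g52280 one of both regions had −6.12 and −2.31. The reverse order was listed upstream of LOC_Os09g26570, with −1.34 in moderate drought and −6.81 in severe drought, in shifted regions that share 384 bases. The severe concentration there was −0.31, the minimum of that table. LOC_Os09g26570 had 16.6 TPM ± 1.83 (SD, n = 3) under normal water, 7.04 TPM ± 1.48 in moderate and 8.10 TPM ± 0.989 in severe drought.

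Few of the regions appeared in the comparison of the osbzip46 mutant with wild type under drought, which used other samples. Of the 700 regions, 15 (2.14%) overlapped 1 of its 522 regions (2.87% of these). The mutant had the higher concentration at 13 of the 15 and the lower at 2, where 82.8% of the whole table was higher in the mutant. None of the 15 passed an FDR of 0.05 in the authors' deposited table, where only 9 of all 522 regions did. The lowest FDR among the 15 was 0.106, upstream of LOC_Os01g12381, where the concentration was −0.17 in wild type and 5.49 in the mutant. That wild type value is close to −0.20, the minimum of the moderate drought column. LOC_Os01g12381 itself went from 1.74 TPM ± 0.278 (SD, n = 3) in the normal to 2.25 TPM ± 0.290 in the moderate libraries, a difference that was not called. Of the other 3 upstream regions among the 15, those at LOC_Os04g33980 (4.40 in wild type, 5.99 in the mutant) and LOC_Os04g57130 (4.40 and 5.81) were higher in the mutant, and that at LOC_Os06g05610 was lower (6.19 and 5.07). All 4 upstream regions overlap the model of a neighbouring gene. The mutant comparison assigned its region at LOC_Os06g05610 to that neighbour, LOC_Os06g05600.

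The authors' deposited table of genes with lower H2Bub1 in the mutant held 19 of the 690 genes (2.75%, which is 1.5% of its 1265 genes), and 1239 of all 20642 tested genes (6%). It lists only lower values, so the direction is fixed by the table, and gives a p-value per gene without an FDR. By contrast, 82.8% of the regions of the same comparison were higher in the mutant. None of the 19 genes had a region among the 15 above, and the sources used here do not say why both listings differ. The listed log2 values for the 19 genes ran from −2.14 at LOC_Os08g27010 to −1.01 at LOC_Os03g36750. Of the 19, 5 were entered as OsbZIP46 targets, LOC_Os01g45750, LOC_Os03g05200, LOC_Os06g03860, LOC_Os02g07160 and LOC_Os01g65610, or 26.3% against 17.3% of the rows of that table. These 5 were named after their values were seen.

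Known drought genes were looked up among the regions. The 79 genes checked came from 8 lists, which covered the ABA signalling chain, ABA metabolism, bZIP, NAC and DREB transcription factors, protective effector proteins, the enzymes of H2B ubiquitination, light harvesting with Rubisco, and the clock. Of these genes 2 had a region, both tested, which is 2.70% of the 74 tested list genes and near the 3.26% of all tested genes that had one. Both came from the 27 of the ABA signalling list, which holds receptors, phosphatases and kinases of the hormone. LOC_Os02g15640 of that list held 75.1, 78.9 and 79.0 TPM under normal water, 49.8, 43.5 and 51.0 TPM in moderate drought and 56.6, 54.9 and 45.4 TPM in severe drought. It fell by 0.68 ± 0.10 (SE, adjusted p = 0.000535 in limma), with a loss of H2Bub1 from 7.30 to 6.05 at 2076 bases from the start. In LOC_Os03g27280 of the same list, H2Bub1 went from 6.23 to 5.18. Its RNA went from 42.6, 40.2 and 44.1 TPM to 31.7, 36.8 and 37.4 TPM, a difference of −0.26 ± 0.40 that was not called (adjusted p = 0.608), while severe replicate 3 held 111 TPM against 32.3 and 33.1 TPM in the other severe libraries. Without severe replicate 3 the moderate difference was called (adjusted p = 0.013).

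In the ABA signalling list as a whole, 12 of 25 tested genes rose and 7 fell in moderate drought, with a median of 0.12 (background 39.4% higher and 18.9% lower). The clock list had 7 of 9 genes lower and the antenna and Rubisco list 4 of 10 lower, and neither list held a lower region. None of the 3 H2B ubiquitination genes held one either. All 5 tested genes of the bZIP list and 4 of 6 effector genes rose, and neither list had a lower region. A region of higher H2Bub1 was listed for 1 gene of the bZIP list and 2 of the ABA signalling list. With so few genes per list, nothing is read from these counts against the background.

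Other classes of the same table are given for comparison. Genes with a lower region within 1 kb of the start had 130 of 274 lower in RNA (47.4%) and 27 higher, with a median of −0.31 in moderate drought. Genes with a lower exon or intron region had 45 of 109 lower (41.3%) and 21 higher, with a median of −0.16. Genes with a higher region at 1 to 3 kb had 61 of 72 higher and 0 lower in limma's test (63 and 0 at an unadjusted p under 0.05), with a median of 1.49. With median-of-ratios or quantile scaling 57 of these were higher and 1 lower (median-of-ratios background 28.2% lower and 27.8% higher). As fitted, 18.9% of all tested genes were lower and 39.4% higher. The differences between these classes were not tested.

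**Figure D5:**
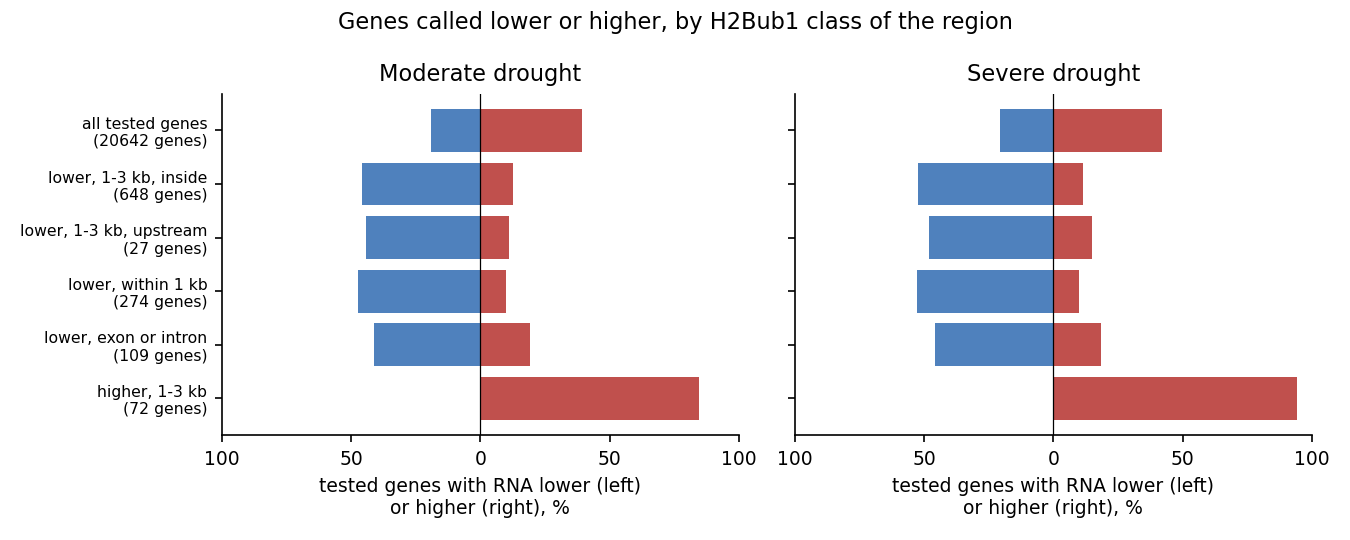
Share of tested genes (x axis, %) whose RNA was called lower (blue, to the left) or higher (red, to the right) in moderate (left) and severe (right) drought, by the class of their H2Bub1 region in moderate drought. In moderate drought the classes with lower H2Bub1 have 41.3% to 47.4% of genes lower, against 18.9% of all tested genes, and the class with higher H2Bub1 at 1 to 3 kb has 84.7% of genes higher. With median-of-ratios scaling these background shares are 28.2% lower and 27.8% higher.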

How the data were processed

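H2Bub1 values were taken from the authors' deposited tables, which per the file headers hold log2 concentrations, a log2 fold, a p-value and an FDR for each region, and the distance to a transcript start. Replicates were combined by the authors, and the method, build and filters are not given in the sources used here. Every region of the moderate drought table differs by at least 1 and has an FDR of at most 0.0498. RNA tables hold, per the file headers, the authors' TPM, FPKM and coverage (signal per base). Coverage and FPKM served only to imply 8.30 to 10.7 Gb of aligned bases per library, and the number of reads is unknown. The submitters' processing notes list Bowtie2 2.3.4, MACS2 2.1.1, HISAT2 2.0.5 and DESeq2 1.20.0, and give no step for any of them.

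Genes that reached 1 TPM in 3 or more libraries were tested as log2(TPM + 1), a scale that understates changes of low genes, in 1 fit over 9 libraries with limma 3.58.1 in R 4.3.3 (robust and trend options of eBayes, with statmod 1.5.0). The tests are two-sided and calls need a Benjamini-Hochberg adjusted p under 0.05. The fit was tested on simulated data. Region identifiers were joined to the RNA tables by gene identifier, and overlaps needed at least 1 base. Regions were called inside at a positive and upstream at a negative distance to the start.

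Named genes were, for each position, the 4 largest H2Bub1 losses, 1 region with the smallest loss (several inside regions tie) and up to 4 of the largest rises and falls in RNA. The latter had no overlap between libraries and at least 5 TPM in the higher condition. List genes, genes in both positions and genes in the mutant tables or with differing neighbours were added. The regions and lists were chosen with earlier results of these data known. None of the gene identifiers matched the RefSeq gene table. Alternatives were another pseudocount (0.1), no filter, 2 other scalings, the 6 libraries compared alone, each library left out, a replicate block, an FDR of 0.01 and an overlap of 50% of the region.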

Additional observations from a re-analysis of the deposited data

How the results depend on the processing

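Percentages of genes called lower stayed within 1.5 times the reported value under every alternative run, in both positions and both droughts. Leaving out each of the 9 libraries gave 39.6% to 54.6% lower and 8.66% to 15.0% higher for inside genes in moderate drought, 46.2% to 55.1% and 8.81% to 14.0% in severe drought. For upstream genes it gave 37.0% to 50% lower and 11.1% to 19.2% higher in moderate drought. Calls over all tested genes moved in the same fits, from 2921 to 4732 lower and from 6751 to 9527 higher in moderate drought. In severe drought they ranged from 3247 to 4641 lower and from 7295 to 9104 higher. The share of higher genes moved further under the settings that follow. Inside genes called higher were 5.40% after quantile normalization and 5.56% after median-of-ratios scaling in moderate drought, and 4.63% and 4.94% in severe drought (both scalings bring the median of all genes to about 0). Upstream genes called higher in moderate drought were 5.56% when only regions with an FDR under 0.01 were used and 20.0% among genes of at least 10 TPM on average, both on few genes.

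The replicate numbers did not pair the libraries, with correlations of same-numbered deviations from −0.257 to 0.143. With a replicate block, 44.3% of inside genes were lower and 11.4% higher in moderate drought. Among single genes, LOC_Os01g50080 changed sign in moderate drought, to −0.026 with quantile normalization and −0.0069 with median-of-ratios scaling. LOC_Os03g27280 was at 0.22 in severe drought, at −0.029 and −0.014 with these scalings, and between −0.36 (without severe replicate 3) and 0.51 with 1 library left out. The causes were not tested.

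The H2Bub1 tables hold no replicate values and list only regions past their limits, so smaller losses could not be seen, and genes under about 1 TPM were not tested.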
